A study of Tupaia belangeri chinensis with 36 samples.

Results

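In the fetal cortex of the Chinese tree shrew (Tupaia belangeri chinensis) at embryonic day 28 (E28), the intermediate zone (IZ) was compared with the cortical plate (CP) that lies outside it. The comparison rested on 4 of the 36 libraries of the series, the 2 labelled E28 IZ and the 2 labelled E28 CP, and on every annotated feature. All samples were fetal cortex with no treatment stated, cut by laser capture microdissection from Nissl-stained sections and sequenced after poly-A capture. No genotype or sex is given in the sources used here, and the labels tie no library to a fetus. The study speaks of biological replicates for its experiments as a whole. P-values here rest on a spread between samples estimated over 35 libraries in 18 groups of layer and stage, not over these 4 alone. The other layers dissected at E28 were the marginal zone (MZ), the outer and inner subventricular zones (OSVZ and ISVZ) and the ventricular zone (VZ), each with 2 libraries. At E37 the IZ had 3 libraries and the CP 5 (1 labelled CP and 2 each of its inner and outer parts), and at E42 the IZ had 2 libraries and the CP 4 (2 each of the inner and outer parts).

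Neurons of the cortex are born in the germinal zones (VZ, ISVZ and OSVZ) next to the ventricle, cross the IZ along radial glial fibres and settle in the CP, where they begin to form layers. The IZ also carries the growing axons of the cortex and the precursors of its oligodendrocytes, and it borders the OSVZ. Cajal-Retzius cells in the MZ release reelin, which migrating neurons sense through the receptors VLDLR and APOER2.

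The annotation held 76871 features. Of these, 21043 carried a TSDBGID number, which the files used here do not pair with a gene symbol, and 54371 carried a name built from a gene symbol. The latter were 31776 LINC features, intergenic transcripts named after a gene, and 22595 AS features, named as antisense to a gene. A value given for LINC-SOX1-1 or VLDLR-AS-2 is therefore that of the noncoding feature and not of SOX1 or VLDLR. The sources used here do not state whether the reads were counted by strand, so reads of an AS feature and of the gene opposite to it cannot be told apart. Several features of 1 host gene share a locus and are not independent of each other.

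Counts on features came to 29814915 and 28205192 in the IZ libraries and to 24378435 and 39074989 in the CP libraries. Noncoding features with at least 1 count numbered 8817 to 11225 per library. Features with a TSDBGID number took 98.08% to 98.35% of the counts. Most noncoding values therefore rest on few reads, though those of VLDLR-AS-2 and some other features do not. The correlation of log2 CPM, the counts scaled to library size, across features was 0.9889 between the IZ libraries, 0.9855 between the CP libraries and 0.9704 to 0.9824 between layers. These are correlations across features, which are not replicates.

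At E28, more features were higher in the IZ than higher in the CP, and by larger folds. Of 26858 features tested with edgeR's quasi-likelihood test at an adjusted p of 0.05, 1006 were higher in the IZ (3.75% of those tested) and 458 were lower (1.71%). The median log2 fold change, IZ over CP, was 2.14 for the higher features and −1.05 for the lower ones, against 0 over all features tested. The higher features held 7.104% and 7.225% of the counts in the IZ libraries and 3.306% and 2.885% in the CP libraries. The lower features held 4.896% and 4.821% in the IZ and 9.159% and 10.32% in the CP. The higher features were mostly weakly expressed, with a median of 6.504 CPM over the 4 libraries, and the lower ones had a median of 68.35 CPM. With the replicate number as a block the counts were 1515 higher and 1146 lower. With only the 4 libraries in the fit they were 305 and 80. They depended on single libraries as well. Without CP replicate 2, 565 features were higher and 194 lower, and without IZ replicate 2, 657 were higher and 194 lower. Without IZ replicate 1, 193 were lower. These layers were cut from tissue that holds several cell types, so fewer cells of a type and less RNA per cell cannot be told apart.

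**Figure D1:**
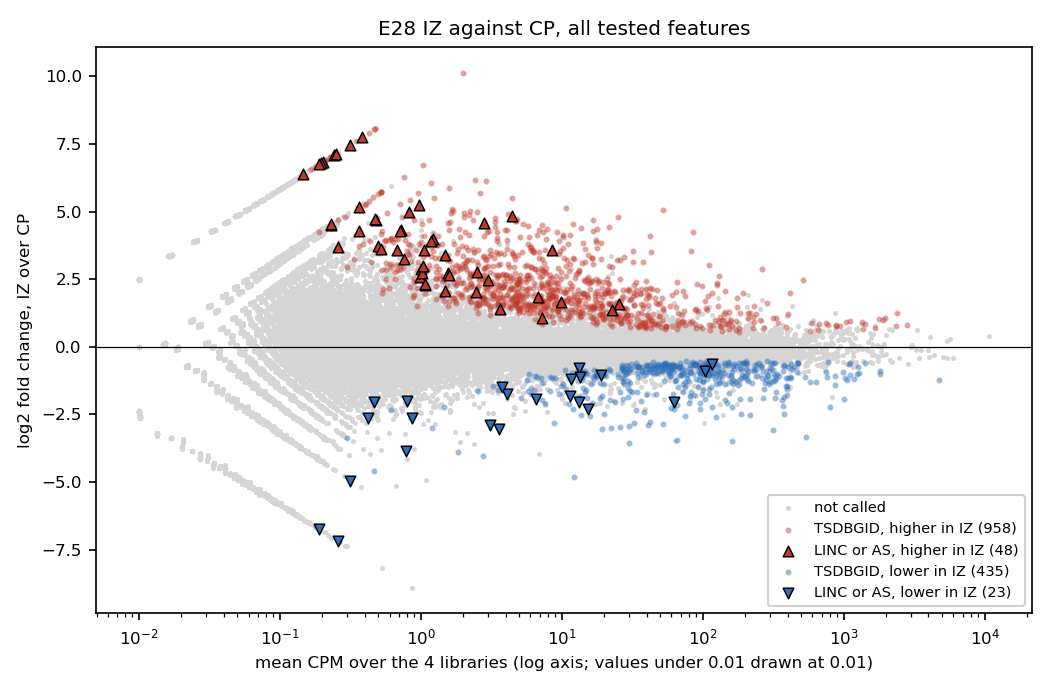
Log2 fold change, IZ over CP, against mean CPM over the 4 E28 libraries (log axis) for every tested feature. Red marks features higher in the IZ and blue marks features lower, with triangles for LINC and AS features. The 958 TSDBGID features higher in the IZ lie further from 0 (median log2 fold change 2.11) and at lower levels (median 7.058 CPM) than the 435 lower ones (−1.04 and 72.3 CPM).

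Where these features peaked at E28 differed by direction. Of the 1006 features higher in the IZ, 425 had their highest mean in the VZ, 261 in the IZ itself, 143 in the ISVZ, 107 in the MZ and 70 in the OSVZ. These were 42.25%, 25.94%, 14.21%, 10.64% and 6.958%. Over all features tested the shares of these layers were 21.87%, 11.72%, 14.51%, 25.85% and 9.029%, so only the VZ and the IZ were above them. The median level of the 1006 features was 25.17 CPM in the VZ, 21.08 in the ISVZ, 12.7 in the OSVZ, 10.68 in the IZ, 2.188 in the CP and 5.868 in the MZ. It thus stepped down from the ventricle outward, was lowest in the CP and was higher again in the MZ. Of the 458 features lower in the IZ, 360 had their highest mean in the CP (78.6%, against 17.02% of all features tested) and 49 in the MZ (10.7%, against 25.85%). Their median was 22.68 CPM in the VZ, 43.14 in the IZ, 94.84 in the CP and 56.34 in the MZ. A feature picked as higher in the IZ cannot peak in the CP, and the reverse, so these counts are a description.

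Among the TSDBGID features, 958 of 15911 were higher in the IZ and 435 were lower. By a rule that asked for a mean of at least 20 CPM, 5 in each direction are named. TSDBGID.18855 had 86.02 and 118 CPM in the IZ and 4.92 and 1.352 in the CP, a log2 fold change of 5.06 (SE 1.02, adjusted p = 0.0045). TSDBGID.9847 had 145.6 and 176.9 CPM in the IZ and 14.02 and 3.191 in the CP, a log2 fold change of 4.25 (SE 0.56, adjusted p = 7e-05). For both, every IZ library lay far above every CP library. TSDBGID.24170 (log2 fold change 4.80), TSDBGID.12541 (4.43) and TSDBGID.25449 (4.08) were the other higher ones. TSDBGID.26271 was lower in the IZ, with 88.44 and 105.6 CPM against 765.1 and 1213 CPM in the CP, a log2 fold change of −3.35 (SE 0.54, adjusted p = 0.000466). TSDBGID.6759 (log2 fold change −3.55), TSDBGID.13489 (−3.47), TSDBGID.4722 (−3.43) and TSDBGID.10834 (−3.07) completed the lower ones. Of these 10, only TSDBGID.12541, TSDBGID.9847 and TSDBGID.26271 were called whichever of the 4 libraries was left out. The calls lost numbered 5 without CP replicate 2 (adjusted p from 0.0684 to 0.293), 4 without IZ replicate 2 (0.0533 to 0.107) and 3 without IZ replicate 1 (0.0537 to 0.14).

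Of 10836 noncoding features tested, 48 were higher in the IZ and 23 were lower. This was 0.443% and 0.2123% of those tested, below the shares over all features. Of 3922 LINC features, 33 were higher (0.8414%) and 7 lower (0.1785%). Of 6914 AS features, 15 were higher (0.217%) and 16 lower (0.2314%). The 71 called features were named after 64 genes. Only POU3F3, RPL36A, MFAP1A and ZEB1 had more than 1 called feature, and all of these were higher. The other genes, with 1 call each, could not have calls in both directions. The median log2 fold change was 3.65 for the higher features (3.33 with the 8 that had no count in the CP set to a floor of 3 counts over the group) and −2.02 for the lower ones. With the replicate block 82 were higher and 53 lower. With only the 4 libraries in the fit, 3 were higher and 5 lower. Without CP replicate 1, 26 were higher, and without CP replicate 2, 20 were higher and 7 lower. Without IZ replicate 1, 8 were lower, and without IZ replicate 2, 6.

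CCNB1-AS-1 was higher in the IZ and peaked in the VZ. This feature, opposite the gene of cyclin B1, which drives entry into mitosis, had 1.869 and 3.523 CPM in the IZ and 0.533 and 0.2975 in the CP, a log2 fold change of 2.73 (SE 0.43, adjusted p = 7.1e-05). Its levels in the VZ were 61.46 and 80.44 CPM, so the IZ value was a small part of that of the germinal zone. It was called whichever library was left out, but not with only the 4 libraries in the fit (adjusted p = 0.0941). LINC-RRM2-1, LINC-CLSPN-1 and LINC-NUF2-1 were also higher, the first 2 with log2 fold changes of 3.61 and 2.89. They were chosen after their values were seen, and no list of cell cycle genes was counted. RRM2 is a subunit of ribonucleotide reductase, CLSPN a protein of the replication checkpoint and NUF2 a part of the kinetochore. LINC-NUF2-1 had 1 count over both CP libraries, a ratio of 26.6 with an exact 95% interval from 4.37 to 1090 that covers counting error only. All 3 had their highest mean in the VZ or ISVZ. LINC-RRM2-1 lost its call without CP replicate 1 (adjusted p = 0.078), LINC-CLSPN-1 without CP replicate 2 (0.187) or IZ replicate 2 (0.0629), and LINC-NUF2-1 without CP replicate 1 (0.192), CP replicate 2 (0.181) or IZ replicate 2 (0.583).

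Of 64 tested features named after radial glia and intermediate progenitor genes, 3 were higher in the IZ and 0 lower, with a median log2 fold change of 0.08. This was 4.688% of the list, against 3.75% higher over all features and 0.443% over noncoding features. LINC-SOX1-1, named after a transcription factor of neural progenitors, had 0.8377 and 0.5872 CPM in the IZ and 0.041 and 0 in the CP (ratio 44.0, exact 95% counting interval 7.49 to 1777, adjusted p = 0.000299). NEUROG1-AS-1, opposite a proneural factor that commits progenitors to a neuronal fate, had 1.74 and 1.485 CPM in the IZ and 0 and 0.08113 in the CP (ratio 33.1, interval 11.0 to 163.2, adjusted p = 0.00753). LINC-SOX9-15, named after a radial glia factor, had 0.6444 and 0.3109 CPM against 0.082 and 0 (ratio 14.8, interval 3.75 to 128.3, adjusted p = 0.0268). The CP had between 1 and 3 counts for each of these features in both libraries together. The summed level of the whole list was 22.39 and 14.26 CPM in the IZ and 12.26 and 12.12 CPM in the CP. The groups did not overlap, but the gap was small. The sum includes the 3 called features, and without them the layers overlap. NEUROG1-AS-1 lost its call without CP replicate 1 (adjusted p = 0.0789), and LINC-SOX9-15 lost it without CP replicate 2 (0.399) or IZ replicate 1 (0.249). Of the features of SOX2, the progenitor marker used in the study, 0 of 6 tested were called by edgeR or by DESeq2, and 1 had an unadjusted p below 0.05. The features LINC-ZEB1-1 and LINC-ZEB1-2, named after a zinc finger and homeodomain repressor, were both higher in the IZ and peaked in the VZ. LINC-ZEB1-1 had 0.7732 and 1.934 CPM in the IZ and 0.082 and 0.05409 in the CP (log2 fold change 4.29, SE 0.74, adjusted p = 0.000257). LINC-ZEB1-2 had 0.7088 and 0.6908 CPM in the IZ and 2 counts over both CP libraries (ratio 21.5, interval 5.59 to 183.2). It lost its call whichever of the 4 libraries was left out (adjusted p from 0.0583 to 0.233).

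**Figure D2:**
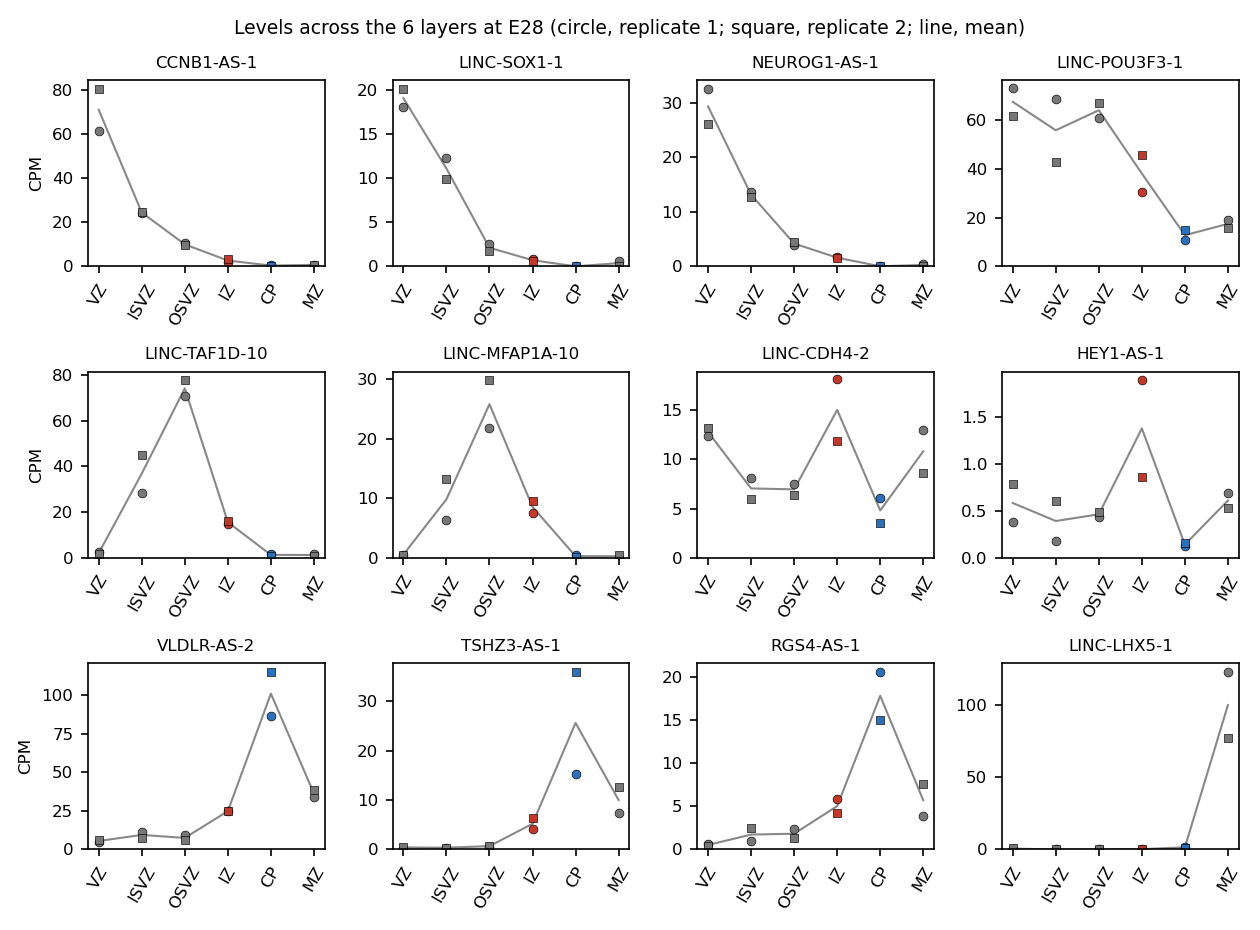
CPM of 12 noncoding features in each of the 12 libraries of E28, ordered from the VZ to the MZ. Circles and squares are replicates 1 and 2, the line joins the means, red marks the IZ and blue the CP. CCNB1-AS-1, LINC-SOX1-1 and NEUROG1-AS-1 fall from the VZ outward, LINC-TAF1D-10 and LINC-MFAP1A-10 peak in the OSVZ, HEY1-AS-1 peaks in the IZ, VLDLR-AS-2 in the CP and LINC-LHX5-1 in the MZ.

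The POU3F3 locus held the largest group of called features. POU3F3, also known as BRN1, is a transcription factor of cortical progenitors and upper-layer neurons. Of 24 annotated features named after it, 17 were tested and 4 were higher in the IZ, and 14 of the 17 had a log2 fold change above 0. Over all noncoding features tested, 0.443% were higher and 46.73% had a log2 fold change above 0, and the features of POU3F3 share a locus. The most abundant, LINC-POU3F3-1, had 30.29 and 45.63 CPM in the IZ and 10.78 and 14.77 in the CP, a log2 fold change of 1.57 (SE 0.30, adjusted p = 0.00097). Across E28 its levels were 61.45 to 73.04 CPM in the VZ and 60.81 to 66.81 in the OSVZ, so the IZ lay between the germinal zones and the CP. LINC-POU3F3-4 and LINC-POU3F3-5 were higher by 2.65 and 2.78 on the log2 scale. LINC-POU3F3-12 had 0.4511 and 0.449 CPM in the IZ and 1 count over both CP libraries (ratio 27.6, exact 95% counting interval 4.55 to 1131). LINC-POU3F3-1 was called whichever library was left out, but not with only the 4 libraries in the fit (adjusted p = 0.0589). Of the other 3, none was called without CP replicate 1 (adjusted p from 0.0876 to 0.167), LINC-POU3F3-4 was not called without IZ replicate 2 (0.436), and LINC-POU3F3-12 lost its call whichever library was left out (0.0829 to 0.167).

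Of the 12 features named by the rule, which asked for a mean of at least 1 CPM, several peaked in the OSVZ. Larger folds were fitted for weaker features, some with no count in the CP. LINC-MFAP1A-10 had 7.636 and 9.533 CPM in the IZ and 0.451 and 0.1623 in the CP, a log2 fold change of 4.85 (SE 1.10, adjusted p = 0.00868), and its OSVZ libraries had 21.84 and 29.83 CPM. LINC-TAF1D-10 had 14.98 and 16.3 CPM in the IZ against 1.722 and 0.9465 in the CP, a log2 fold change of 3.57 (SE 0.85, adjusted p = 0.0141), with 70.57 and 77.58 CPM in the OSVZ. LINC-MFAP1A-11, LINC-FCF1-12 and LINC-PIGG-1 were higher by 3.93, 3.39 and 4.58 on the log2 scale and also peaked in the OSVZ. The names MFAP1A, TAF1D and FCF1 recur on several features, and reads of such families may be split between copies, so these values are uncertain. So are those of the called features of RPL36A, RPL21, RPL9, RPS24 and L1RE1, names of ribosomal protein genes and of a transposon. Among the other features higher in the IZ, LINC-TMEM132B-23 (log2 fold change 3.00, SE 0.55) carried the name of a transmembrane protein and LINC-SLC43A3-2 (2.72, SE 0.60) that of a membrane transporter. MSRA-AS-2 (3.56, SE 1.07), opposite a methionine sulfoxide reductase, had its highest mean in the IZ. Its IZ libraries (2.771 and 1.105 CPM) overlapped those of the OSVZ (1.183 and 1.678). Of the 12 features named by the rule among those higher, only LINC-TMEM132B-23 and CCNB1-AS-1 were called whichever library was left out. Neither of them was called with only the 4 libraries in the fit (adjusted p = 0.115 and 0.0941). The lost calls were 8 without CP replicate 2 (adjusted p from 0.0791 to 0.419), 6 without CP replicate 1 (0.0576 to 0.16), 5 without IZ replicate 2 (0.0512 to 0.436) and 2 without IZ replicate 1 (0.133 to 0.328).

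**Figure D3:**
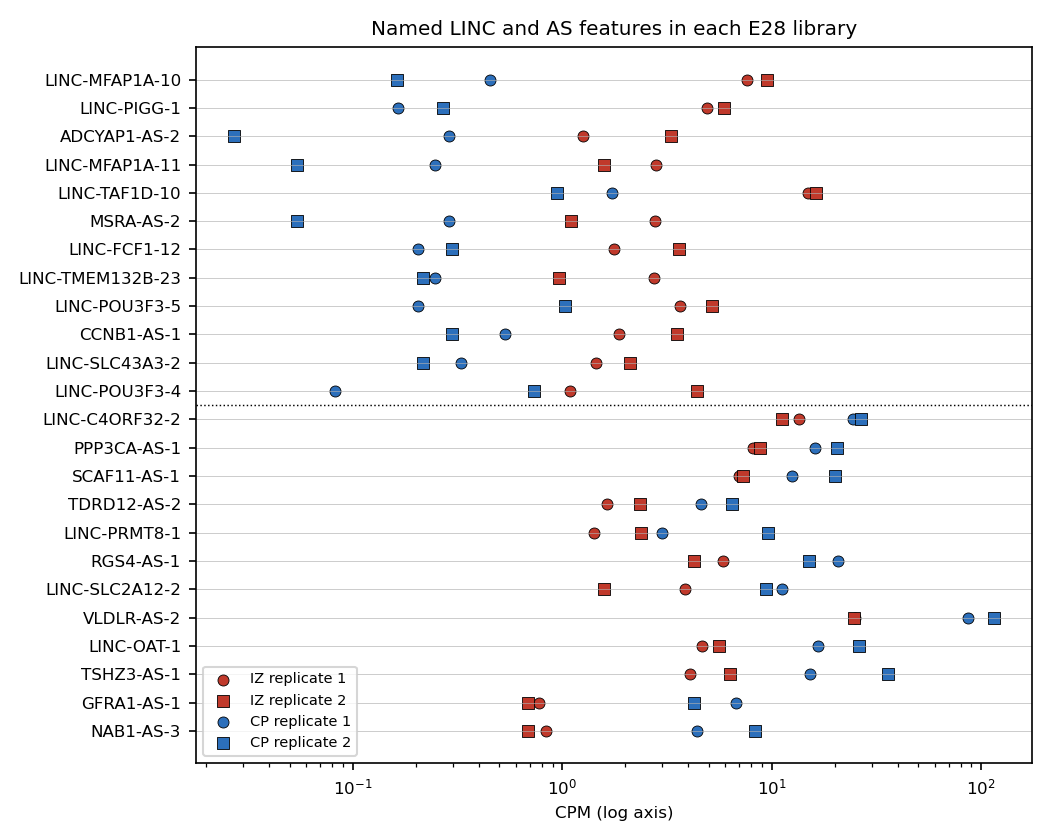
CPM (log axis) of the 24 LINC and AS features named by the rule in each of the 4 E28 libraries, red for the IZ and blue for the CP. The 12 features above the dotted line were higher in the IZ and the 12 below were lower, and the libraries of the 2 layers do not overlap for any of them, as the rule required.

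Some features had their highest mean in the IZ among the 6 layers. LINC-CDH4-2, named after R-cadherin, had 18.17 and 11.85 CPM in the IZ and 6.068 and 3.57 in the CP (log2 fold change 1.64, SE 0.34, adjusted p = 0.00225), and was not called without CP replicate 2 (0.124) or IZ replicate 1 (0.0815). Its mean in the VZ was 12.76 CPM, within the range of its IZ libraries. It was 1 of 72 tested features of cadherins and protocadherins, of which 0 were lower. LINC-SEMA6D-12, named after a semaphorin, was the only called feature of 145 of axon guidance genes, at 1.385 and 1.105 CPM against 0.123 and 0.08113. Its mean in the OSVZ was 1.096 CPM, just under its lower IZ library. HEY1-AS-1, opposite a target of Notch, was the only called feature of 116 of morphogen signalling genes, at 1.901 and 0.8635 CPM against 0.123 and 0.1623. These 3 lists had 0.6897% to 1.389% of their features called, near the 0.6552% of all noncoding features. LINC-SEMA6D-12 and HEY1-AS-1 kept their calls only when IZ replicate 2 was the library left out. Without CP replicate 2 their adjusted p was 0.207 and 0.185.

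Features lower in the IZ mostly peaked in the CP. VLDLR-AS-2, opposite the reelin receptor gene, had 24.94 and 24.73 CPM in the IZ and 86.63 and 115.3 in the CP, a log2 fold change of −2.02 (SE 0.24, adjusted p = 1.31e-06). It had the smallest adjusted p among the 24 features named by the rule, and it stayed called in all 13 alternatives. It was 1 of 38 tested features of migrating neuron and cytoskeleton genes, of which 0 were higher. The median log2 fold change of that list was 0.184. The summed level of the list, VLDLR-AS-2 included, was 120.5 and 89.53 CPM in the IZ and 165.3 and 176.7 in the CP. VLDLR-AS-2 accounted for this gap, so the sum shows no lower level of the other features. LINC-OAT-1, named after ornithine aminotransferase, had 4.672 and 5.595 CPM in the IZ and 16.6 and 26.12 in the CP (log2 fold change −2.06, SE 0.37, adjusted p = 0.000382), and it too stayed called in all 13 alternatives. TSHZ3-AS-1, opposite a zinc finger factor of cortical projection neurons, had 4.06 and 6.355 CPM in the IZ and 15.29 and 35.99 in the CP (log2 fold change −2.30, SE 0.48, adjusted p = 0.002). The CP libraries differed more from each other than the IZ libraries did, and the call was lost without CP replicate 2 (adjusted p = 0.0983) or IZ replicate 1 (0.0593).

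Of the other features lower in the IZ, RGS4-AS-1, opposite a regulator of G protein signalling, had 5.832 and 4.248 CPM in the IZ against 20.66 and 15.06 in the CP. PPP3CA-AS-1, opposite the catalytic subunit of calcineurin, had 8.183 and 8.842 CPM against 16.19 and 20.47. GFRA1-AS-1, opposite the GDNF co-receptor, had 0.7732 and 0.6908 CPM against 6.765 and 4.246, and NAB1-AS-3, opposite a corepressor of EGR factors, had 0.8377 and 0.6908 against 4.387 and 8.356. These 4 features had log2 fold changes of −1.82, −1.11, −2.90 and −3.06. None of the 4 was called when either IZ library was left out. MAP4-AS-2 and ADD2-AS-2, chosen after their values were seen for their high levels, are opposite genes of cytoskeletal proteins, as is DBN1-AS-1, which was higher in the IZ (1.321 and 0.5181 CPM against 0.082 and 0.05409) and lost its call without CP replicate 1 (adjusted p = 0.122), CP replicate 2 (0.301) or IZ replicate 1 (0.285). MAP4-AS-2 and ADD2-AS-2 had 73.1 and 72.02 CPM and 102.9 and 78.3 CPM in the IZ against 113.4 and 158.3 CPM and 130.5 and 152.5 CPM in the CP. MAP4-AS-2 was not called without CP replicate 2 (adjusted p = 0.104), and ADD2-AS-2, at an adjusted p of 0.0421, lost its call in 10 of the 13 alternatives. Of the 12 features named by the rule among those lower, only LINC-OAT-1 and VLDLR-AS-2 were called whichever library was left out. Lost calls numbered 9 without IZ replicate 2 (adjusted p from 0.0614 to 0.36), 8 without CP replicate 2 (0.0647 to 0.72), 8 without IZ replicate 1 (0.0593 to 0.37) and 4 without CP replicate 1 (0.0517 to 0.168).

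Features named after cell types that a dissected strip could also hold formed small lists, of 11 to 54 tested features. Over all noncoding features tested, 0.6552% were called, so few calls in lists of this size say little about these cell types. LINC-LHX5-1, named after a factor of Cajal-Retzius cells, was the only one called of 11 Cajal-Retzius features, with 0.1933 and 0.2763 CPM in the IZ and 1.927 and 1.055 in the CP (log2 fold change −2.64, SE 0.71, adjusted p = 0.0257). The MZ had 123 and 77.06 CPM of it, so its level in the CP was a small part of that in the MZ. The call was lost without CP replicate 1 (0.153), IZ replicate 1 (0.227) or IZ replicate 2 (0.124). The summed Cajal-Retzius list had 9.794 and 6.183 CPM in the IZ and 10.78 and 8.194 in the CP, with overlapping ranges. LINC-SOX10-1, named after a factor of the oligodendrocyte lineage, had 0.4511 and 0.3109 CPM in the IZ and no count in the CP, at least 7.84-fold higher at a floor of 3 counts over the group. It was the only called feature of 16 in that list, and it was not called without CP replicate 2 (adjusted p = 0.124). Of 54 interneuron features, 11 subplate features and 21 vascular, meningeal and immune features, 0 were called by edgeR, with 4, 1 and 5 at an unadjusted p below 0.05 and 1 of each list called by DESeq2. The summed subplate list was 1.901 and 2.729 CPM in the IZ and 6.068 and 14.28 in the CP. Most of this was LINC-HS3ST4-2, and the other 10 features came to 0.6121 and 0.449 CPM in the IZ and 1.23 and 0.7572 in the CP. The vascular, meningeal and immune list was 8.57 and 15.27 against 9.102 and 26.99. The summed interneuron list was 57.45 and 122.1 CPM in the IZ and 41.41 and 109.4 in the CP. Its replicates 2 were both above its replicates 1. Of the markers used in the study, 1 feature of DAB1, a gene of migrating neurons, was tested, and 3 of RELN, the gene of reelin. None was called, at 0 to 0.41 CPM. LINC-DAB1-7 had 1 and 0 counts in the IZ and 10 and 12 in the CP (log2 fold change −4.21, SE 2.23, adjusted p = 0.376). The study reported DAB1 itself as high in the IZ. The labels of the layers could thus be checked on few features. Whether a layer held more of any of these cells was not tested.

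**Figure D4:**
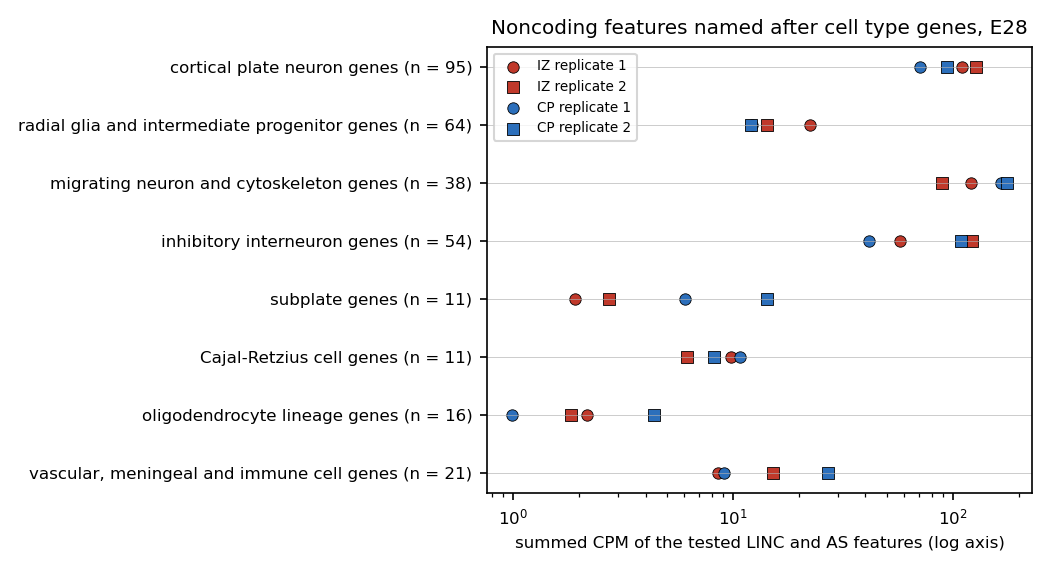
Summed CPM (log axis) of the tested LINC and AS features named after the genes of each cell type, in the 4 E28 libraries, red for the IZ and blue for the CP. The plate neuron list summed to 109.7 and 127.4 CPM in the IZ and 70.72 and 93.76 in the CP, and without the 4 called POU3F3 features to 74.23 and 71.74 against 59.65 and 77.21, which overlap. The gap in the subplate list came mostly from LINC-HS3ST4-2, and that in the migrating neuron list from VLDLR-AS-2. Without its called features the radial glia list overlaps as well.

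The remaining lists were given by their counts. Of 95 features of CP neuron genes, 4 were higher in the IZ and 0 lower, and these were the 4 of POU3F3. Of 120 features of homeobox genes, 6 were higher and 2 lower. The 6 were the features of POU3F3 and ZEB1 given above, from these loci only, and the 2 were TSHZ3-AS-1 and LINC-LHX5-1. Of 366 zinc finger features, SALL1-AS-1 (1.192 and 0.6563 CPM against 0 and 0.05409) was higher and TSHZ3-AS-1 lower, and of 184 solute carrier features, LINC-SLC43A3-2 was higher and LINC-SLC2A12-2 lower. Among 44 SOX features 3 were higher and 0 lower, and these were LINC-SOX10-1, LINC-SOX1-1 and LINC-SOX9-15, given above. The lists of synaptic adhesion, voltage-gated channel, neurotransmitter receptor and extracellular matrix genes, with 101, 95, 79 and 96 tested features, had 0 calls by edgeR, with 7, 6, 5 and 9 at an unadjusted p below 0.05. DESeq2 called 3 of the extracellular matrix features and 0 of the other 3 lists. Over all noncoding features, 48 and 23 of 10836 were called.

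The difference between the IZ and the CP was also read at the later stages, in libraries that share none with E28. At E37, 698 features were higher in the IZ (2.6% of those tested) and 335 lower (1.25%). At E42, 1790 were higher (6.66%) and 1400 lower (5.21%). Of the 1006 features higher at E28, 912 had the same sign at E37 and 379 were called, and 939 had the same sign at E42 and 647 were called. Over all features tested, 51.77% and 55.06% were higher in the IZ at E37 and E42. Of the 458 features lower at E28, 355 kept their sign at E37 and 64 were called, and 385 kept it at E42 and 204 were called, against 45.13% and 43.06% of all features with that sign. Noncoding features followed: of the 48 higher at E28, 41 had the same sign at E37 and 42 at E42, with 10 and 19 called. Of the 23 lower at E28, 16 had the same sign at E37 and 18 at E42, with 3 and 8 called.

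The difference itself changed after E28 for a minority. From E28 to E37, 348 features passed the interaction test (1.3% of those tested), and 764 with the replicate block. From E28 to E42, 328 did (1.22%), and 846 with the block. Without IZ replicate 2 of E28, 134 and 139 passed, and without IZ replicate 1, 192 passed for E37. Without CP replicate 2, 207 passed for E37. Among the features higher at E28, 171 changed by E37 and 106 by E42, and all of these changes ran against the E28 difference. Among those lower at E28, 90 and 54 changed, again all against the E28 difference. These include differences that became smaller and differences that changed sign. The E28 value that selected these features also enters the interaction, so this direction is a description.

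ADCYAP1-AS-2, opposite the gene of the neuropeptide PACAP, changed sign. It had 1.257 and 3.316 CPM in the IZ and 0.287 and 0.02704 in the CP at E28 (log2 fold change 3.97, adjusted p = 0.00133). At E37 it had 0.7127 to 1.382 CPM in the IZ and 1.001 to 5.144 in the CP. At E42 it had 0.1773 and 0.1116 CPM in the IZ and 1.143 to 1.855 in the CP (log2 fold change −3.34, adjusted p = 0.00151). The IZ was above the CP at E28 and below it at E42, with no overlap at either stage. The E28 CP libraries had 7 and 1 counts of this feature. Its E28 call was lost without CP replicate 2 or with only the 4 libraries in the fit. VLDLR-AS-2 went from a log2 fold change of −2.02 at E28 to −0.11 at E37 (interaction adjusted p = 0.000367), with 42.13 to 52.61 CPM in the IZ and 34.48 to 75.26 in the CP at E37. At E42 it was again called lower in the IZ, with 26.42 and 26.29 CPM against 43.4 to 55.12 in the CP (log2 fold change −0.89, adjusted p = 0.00394), and the change from E28 to E42 did not pass (adjusted p = 0.0606). TSHZ3-AS-1 went from −2.30 at E28 to 0.06 at E37 and 1.08 at E42 (interaction adjusted p = 0.0282 and 0.00212). The E42 difference itself was not called (adjusted p = 0.0639), and its IZ libraries (16.82 and 11.11 CPM) overlapped those of the inner CP (12.53 and 7.515). RGS4-AS-1 went from −1.82 at E28 to 0.85 at E42 (interaction adjusted p = 0.0412). Here too the E42 difference was not called (adjusted p = 0.222), and the IZ (28.8 and 21.4 CPM) overlapped the inner CP (26.82 and 11.25). The CP of E28 was cut as 1 layer, and that of E42 is the mean of 2 parts, for every such comparison. LINC-HS3ST4-2, named after a heparan sulfate sulfotransferase of the subplate list and chosen after its values were seen, was not called at E28, where it had 1.289 and 2.28 CPM in the IZ and 4.838 and 13.52 in the CP (log2 fold change −2.37, adjusted p = 0.0584). At E42 it had 3.447 and 3.125 CPM in the IZ, 3.954 and 2.674 in the inner CP and 0.03547 and 0.1029 in the outer CP, and its difference from the mean of both parts of the CP was a log2 fold change of 2.78 (adjusted p = 0.00369). The IZ and the inner CP overlapped at E42, and the outer CP lay far below both.

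**Figure D5:**
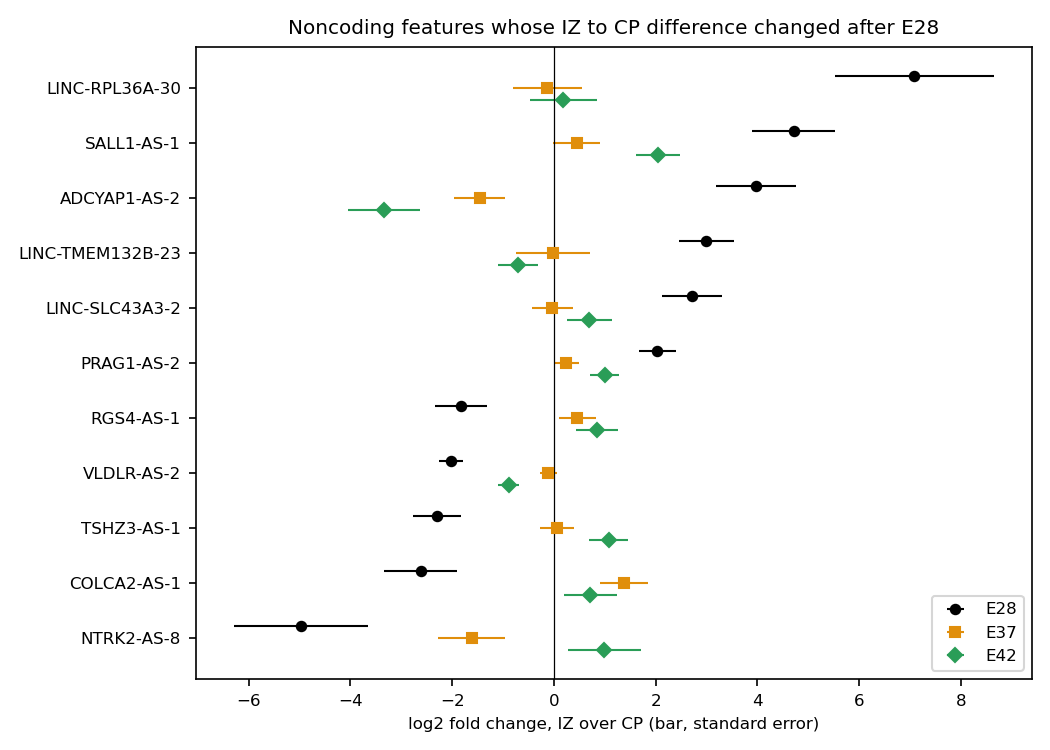
Log2 fold change, IZ over CP, at E28 (circles), E37 (squares) and E42 (diamonds), with bars of 1 standard error, for 11 called noncoding features whose difference changed from E28 to E37 or E42. ADCYAP1-AS-2 crosses from 3.97 to −3.34, and TSHZ3-AS-1 goes from −2.30 to 1.08, of which the later value was not called.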

How the data were processed

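Cortical layers were cut by the authors with laser capture microdissection, and poly-A RNA was sequenced. Per the labels, reads were mapped with HISAT2 and counted with HTSeq, and the deposited values are integer counts per feature, not normalized. The counter's lines for unassigned reads were removed, and 55.29% to 56.85% of counted lines of the E28 IZ and CP libraries lay on features. Of 12435 gene symbols in LINC and AS names, 10411 were found in a RefSeq table of another build.

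Low counts were removed with filterByExpr (minimum count 10, by group), and 35 libraries in 18 groups (17 residual degrees of freedom) entered 1 TMM-scaled, robust quasi-likelihood fit in edgeR 4.0.16 (R 4.3.3). The library labelled E42 VZ replicate 2 repeated the counts of E28 VZ replicate 2 and was left out. The 5 CP libraries of E37 had equal weight, and at E42 the inner and outer CP were averaged. P-values were adjusted by Benjamini-Hochberg over 26858 features, with a threshold of 0.05. DESeq2 1.42.0 served as an alternative, and matplotlib 3.10.9 drew the plots. Scripts were tested on simulated data.

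Named by rule were up to 12 noncoding features in each direction with a mean of at least 1 CPM and 5 TSDBGID features in each direction with at least 20 CPM, both by fold among called features whose layers did not overlap, up to 3 called features per list and direction, and the features of marker genes of the study. Some results are not reported here. Members and lists were chosen with earlier results of these data known. The main fit did not pair libraries by replicate number. Deviations of E28 libraries with 1 number correlated at 0.3173 to 0.5463 in 15 of 15 pairs of layers. A fit with the replicate number as a block was therefore run as an alternative. No label says what the number marks. Replicates differed by more than sampling noise (chi-square per degree of freedom 48.16 in the IZ and 87.09 in the CP). The alternatives were DESeq2's Wald test and size factors, no filter, all 36 libraries, only the 12 or the 4 libraries, the replicate block, the 20 most abundant features left out, an absolute log2 fold change above 1 and single libraries left out. Intervals and floors cover counting error only, since reads were counted without molecular identifiers.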

Additional observations from a re-analysis of the deposited data

Results flagged for a closer look

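Each result here is a difference between the IZ and the CP that changed from E28 to a later stage by the interaction test (edgeR's quasi-likelihood test, adjusted p under 0.05 over all features). Values are the later log2 fold change, IZ over CP, minus that at E28. From E28 to E37 the change was −2.95 for AAGAB-AS-1, −5.43 for ADCYAP1-AS-2, 4.00 for COLCA2-AS-1, −4.76 for GLE1-AS-2, −3.82 for LINC-AAGAB-1, 4.12 for LINC-HS3ST4-2, 4.47 for LINC-PAPOLG-4, −7.22 for LINC-RPL36A-30, −2.75 for LINC-SLC43A3-2, −3.01 for LINC-TMEM132B-23, 6.95 for OSBPL10-AS-4, −1.79 for PRAG1-AS-2, −4.27 for SALL1-AS-1, 3.49 for TSDBGID.10834, 2.65 for TSDBGID.26271, 2.36 for TSHZ3-AS-1 and 1.92 for VLDLR-AS-2. From E28 to E42 it was −7.32 for ADCYAP1-AS-2, 1.51 for AKAP13-AS-6, 1.19 for LINC-GLUL-1, 4.22 for LINC-HIS-71-7, 5.15 for LINC-HS3ST4-2, −3.70 for LINC-TMEM132B-23, 5.97 for NTRK2-AS-8, 2.67 for RGS4-AS-1, 10.13 for RGS9-AS-1, 4.02 for TSDBGID.10834, 2.80 for TSDBGID.26271, 4.42 for TSDBGID.4722, 3.38 for TSHZ3-AS-1 and 3.95 for ZNF831-AS-1. LINC-RPL36A-30 had no count in the CP at E28, SALL1-AS-1 had 2, and NTRK2-AS-8, RGS9-AS-1 and OSBPL10-AS-4 had 1, 1 and 2 counts in the IZ at E28, so their fitted changes depend on the prior count and are no measure of size. Both sets of changes share the E28 libraries.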

How the results depend on the processing

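No result reversed its direction. The counts of features higher in the IZ, lower in the IZ, noncoding higher and noncoding lower were 1515, 1146, 82 and 53 with the replicate block, 305, 80, 3 and 5 with only the 4 libraries, and ranged over 565 to 769, 193 to 457, 20 to 35 and 6 to 18 with a single library left out. DESeq2's Wald test gave 788 lower, 84 noncoding higher and 51 noncoding lower. All 36 libraries gave 243 lower and 10 noncoding lower, and the 12 libraries of E28 gave 188 and 8. An absolute log2 fold change above 1 left 251 lower. The interaction counts for E37 and E42 were 764 and 846 with the block, 709 and 748 by the Wald test, 655 and 635 without a filter, 184 and 149 with all 36 libraries, and 134 to 276 and 139 to 280 with a single library left out. The causes were not tested. Of 79 named or called noncoding and TSDBGID features, 79 kept their call with the block, and 53 lost it with only the 4 libraries. Without CP replicate 2, 54 lost it. Features with few counts in the CP are limited by depth.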
